A study of Mus musculus with 5 samples.

Results

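The colon epithelial lineage transcripts are a set of 42 genes that mark the cells lining the colon, from structural proteins that most of these cells share to products of goblet, absorptive, stem, enteroendocrine and tuft cells. They were found by gene symbol in a table of 24421 rows of read counts, where 41 of the 42 had a row, 40 had at least 1 read and 32 passed the filter on low counts. The mucin gene Muc3 was not analysed here. The study sequenced RNA of 2 cell populations from the lamina propria of the mouse colon, the tissue just beneath that epithelium, to compare Foxp3 reporter-null cells with wild-type regulatory T (Treg) cells. All mice carried Foxp3DTR-GFP over loxp-Thy1.1-STOP-loxp-GFP, so both populations shared that genotype. Reporter-null cells, marked Thy1.1+, gave 3 libraries, named KIKO-2, KIKO-3 and KIKO-1-and-4 in the table and titled replicates 2, 3 and 1. Foxp3-DTR-GFP+ Treg cells gave 2, named Treg-2 and Treg-3 and titled replicates 1 and 2. The labels do not explain the name KIKO-1-and-4, and give no age, treatment, number of animals or pooling. The p-values therefore reflect only how these libraries vary, which can be technical variation.

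The colon epithelium is renewed from stem cells at the base of crypts. Their progeny become absorptive colonocytes, which take up water and salt, goblet cells, which secrete the mucus layer, and rare enteroendocrine and tuft cells. T cells of the lamina propria lie close below this layer, and keratins, claudins and mucins are not part of their usual programme.

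The libraries held 17670420 to 22395169 reads. Foxp3, which defines Treg cells, and Thy1 followed the group labels in all 5 libraries. Foxp3 ran from 75.7 to 81.2 CPM (reads per 1000000, on library sizes scaled with TMM factors) in reporter-null libraries and from 764 to 769 CPM in Treg libraries, and Thy1 from 269 to 300.3 CPM in reporter-null libraries and from 18.8 to 21.3 CPM in Treg libraries. The T cell markers, 11 genes such as Cd3e and Lck, summed to between 8188 and 8860 CPM in every library.

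Epithelial transcripts stood high in KIKO-2 and Treg-2, the library numbered 2 of each group, and low in the other 3 libraries. The 41 genes together held 2600.2 CPM in KIKO-2 and 550.03 CPM in Treg-2, against 45.7 CPM in KIKO-3, 41.9 CPM in KIKO-1-and-4 and 64.8 CPM in Treg-3. As a share of all reads this was 0.263% in KIKO-2 and 0.0574% in Treg-2, against 0.00408% to 0.00630% in the other 3 libraries. Within the reporter-null group the sum in KIKO-2 was 56.9 times that in KIKO-3 (95% interval 53.5 to 60.6) and 62.0 times that in KIKO-1-and-4 (57.8 to 66.6). Within the Treg group the sum in Treg-2 was 8.49 times that in Treg-3 (8.03 to 8.99). KIKO-3 and KIKO-1-and-4 differed from each other by a ratio of 1.09 (0.991 to 1.2). These exact conditional binomial intervals compare single libraries and cover counting error only, since amplified reads are not independent molecules.

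**Figure D1:**
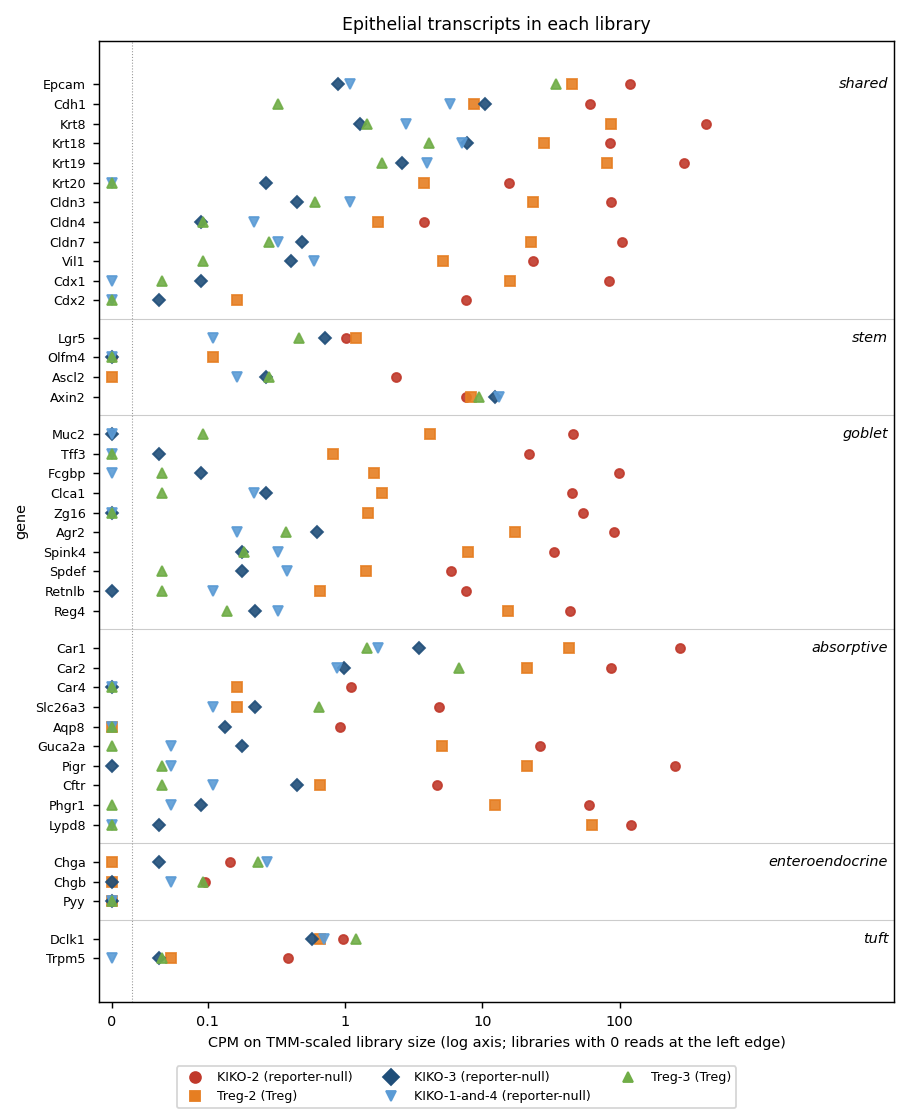
CPM of each of the 41 genes (rows, grouped by lineage) in each library (points), on a log axis with 0 reads at the left edge. KIKO-2 and Treg-2 lie to the right of the other 3 libraries in 31 of the 40 genes with a read.

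Of the 40 genes with a read, 31 were higher in both KIKO-2 and Treg-2 than in every other library, where 11.6% of the 19834 genes with a read were. In 22 of them the lower of KIKO-2 and Treg-2 was at least 4-fold above the highest of the other 3, with at least 10 reads in both. Over all genes with a read 1.61% met that rule. In the opposite direction, both below the other 3, stood 1 of the 40 (Axin2) and 8.85% of all genes. The split into these libraries was proposed with results of these data known, so it is described here without a test. In bulk RNA, more epithelial cells and more RNA per cell cannot be told apart.

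Promoters are shown for Reg4 and Krt20, a goblet and a shared gene that were at least 4-fold higher in KIKO-2 and Treg-2, for the absorptive gene Slc26a3, which was not higher in both, and for Epcam, which was higher in both by less than 4-fold. Windows of 300 bases, from 250 before to 50 after the annotated start, were taken from RefSeq on GRCm38.p6 and matched 30 of the 41 members. Capitals mark matches, on either strand, to AATAAA (the core of CDX sites), the HNF1 motif (10 letters, of which the seventh may be any base, in capitals in Reg4 and Slc26a3), CAAAGTCC (HNF4), ATCAAAG (TCF/LEF) and, for the TATA box, TATAAA. The CDX and TATA letters can share bases where they adjoin, as can those of TCF/LEF and HNF4. The windows are Reg4 at chr3:98221906-98222205 (plus strand), Slc26a3 at chr12:31437969-31438268 (plus strand), Krt20 at chr11:99438104-99438403 (minus strand) and Epcam at chr17:87635729-87636028 (plus strand), each printed 5′ to 3′ along its gene.
Reg4: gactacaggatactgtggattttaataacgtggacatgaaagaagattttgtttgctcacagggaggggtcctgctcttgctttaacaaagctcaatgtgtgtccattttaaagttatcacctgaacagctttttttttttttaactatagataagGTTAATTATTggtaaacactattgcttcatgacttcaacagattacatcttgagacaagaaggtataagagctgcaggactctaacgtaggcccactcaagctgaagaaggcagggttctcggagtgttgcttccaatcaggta
Slc26a3: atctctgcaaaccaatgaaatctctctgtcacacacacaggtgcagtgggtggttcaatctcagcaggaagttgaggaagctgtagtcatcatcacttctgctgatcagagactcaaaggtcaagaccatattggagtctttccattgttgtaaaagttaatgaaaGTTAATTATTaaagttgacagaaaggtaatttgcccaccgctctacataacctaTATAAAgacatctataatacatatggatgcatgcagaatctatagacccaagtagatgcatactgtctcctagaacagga
Krt20: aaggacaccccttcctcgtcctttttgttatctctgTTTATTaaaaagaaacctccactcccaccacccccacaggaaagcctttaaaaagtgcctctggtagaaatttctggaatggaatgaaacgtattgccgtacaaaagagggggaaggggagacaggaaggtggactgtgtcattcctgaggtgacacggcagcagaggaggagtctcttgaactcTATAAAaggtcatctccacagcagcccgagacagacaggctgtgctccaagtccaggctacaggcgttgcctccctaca
Epcam: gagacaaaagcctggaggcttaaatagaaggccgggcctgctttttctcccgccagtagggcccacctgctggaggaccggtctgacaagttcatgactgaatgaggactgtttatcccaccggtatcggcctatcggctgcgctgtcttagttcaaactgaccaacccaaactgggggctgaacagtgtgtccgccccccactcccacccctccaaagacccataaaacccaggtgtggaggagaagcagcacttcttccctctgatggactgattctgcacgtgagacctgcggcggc

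The HNF1 letters lay 94 bases before the start in Reg4 and 84 bases before it in Slc26a3, and were in 2 of the 30 matched members and in 0.399% of all 32851 windows. The TATA letters lay 30 bases before the start in Slc26a3 and 29 in Krt20, and were in 6 of the 30 members and in 13.6% of all windows. The CDX core was in 3 of the 30 members, Krt20, Aqp8 and Dclk1, and in 19.6% of all windows. The TCF/LEF letters were in 1 member, Dclk1, and in 3.73% of all windows, and the HNF4 letters in 0 members and 1.42%. The Epcam window held none of these letters. A match describes letters in a window and is not a binding site.

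The keratins showed the split in full. Krt8, a keratin of simple epithelia, had 425 CPM in KIKO-2 and 86.0 CPM in Treg-2, against 1.29 CPM in KIKO-3, 2.76 CPM in KIKO-1-and-4 and 1.43 CPM in Treg-3. Its ratio was 330 between KIKO-2 and KIKO-3 (229.5 to 493) and 60.04 between Treg-2 and Treg-3 (42.1 to 88.7). Krt19, a further simple keratin, had 294 CPM in KIKO-2 and 80.9 CPM in Treg-2, against 1.85 to 3.95 CPM in the other libraries. Krt18, the partner of Krt8 in filaments, separated less, with 84.9 and 28.1 CPM in KIKO-2 and Treg-2, against 4.07 to 7.69 CPM. Krt20, a keratin of differentiated intestinal cells, had 15.7 CPM in KIKO-2 and 3.74 CPM in Treg-2, against 6 reads in KIKO-3 and none in KIKO-1-and-4 and Treg-3.

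Junction, brush border and identity genes followed the keratins. Cldn7, a claudin of tight junctions, had 103 CPM in KIKO-2 and 22.4 CPM in Treg-2, against 0.489 CPM in KIKO-3, 0.325 CPM in KIKO-1-and-4 and 0.277 CPM in Treg-3. The claudin Cldn3 had 86.8 CPM in KIKO-2 and 23.4 CPM in Treg-2, and at most 1.08 CPM elsewhere. Vil1, which encodes the actin bundler villin of the brush border, had 23.2 CPM in KIKO-2 and 5.15 CPM in Treg-2, against 0.0924 to 0.595 CPM. The homeobox factor Cdx1 had 1755 reads in KIKO-2 and 294 in Treg-2, against 2 in KIKO-3, none in KIKO-1-and-4 and 1 in Treg-3. Its relative Cdx2, which specifies intestinal identity, had 157 reads in KIKO-2 and only 3 in Treg-2, against 1, 0 and 0. The claudin Cldn4 had 78 reads in KIKO-2 and 32 in Treg-2, against 2, 4 and 2. Of the 12 shared genes 11 were above the other 3 libraries in both KIKO-2 and Treg-2, with Cdh1 as the exception.

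**Figure D2:**
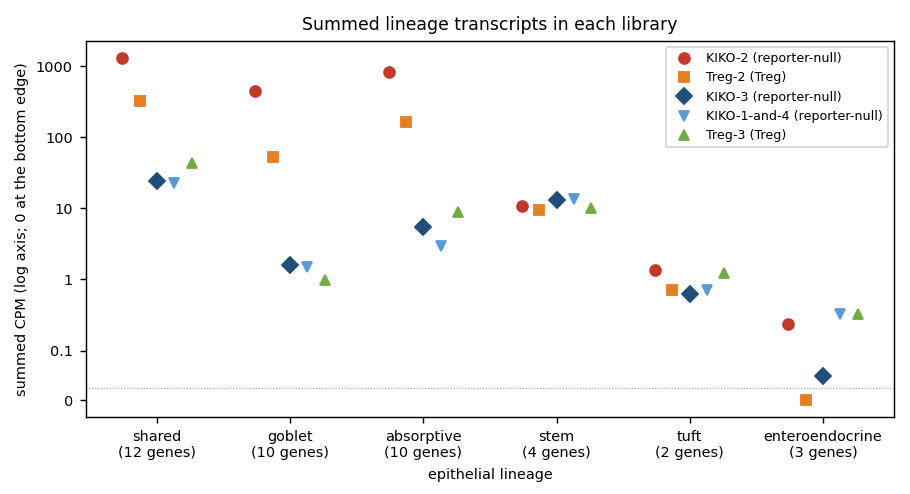
Summed CPM (log axis, 0 at the bottom edge) of the genes of each lineage in each library. The shared, goblet and absorptive sums of KIKO-2 and Treg-2 lie above those of the other 3 libraries, and the stem, tuft and enteroendocrine sums do not.

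Goblet cell transcripts separated by the widest ratios of the lineage sums, 278.5 for KIKO-2 over KIKO-3 and 54.0 for Treg-2 over Treg-3. All 10 were higher in both KIKO-2 and Treg-2 than elsewhere, and their sum was 445.8 CPM in KIKO-2 and 52.4 CPM in Treg-2, against 0.970 to 1.60 CPM in the other 3 libraries. Muc2, the gel-forming mucin, had 944 reads in KIKO-2 and 76 in Treg-2, against 0 in KIKO-3, 0 in KIKO-1-and-4 and 2 in Treg-3. With a limit of 3 reads for a library at 0, Muc2 was at least 339-fold higher in KIKO-2 than in KIKO-3. Zg16, a mucus lectin that binds Gram-positive bacteria, had 1117 reads in KIKO-2 and 27 in Treg-2, and none in the other 3 libraries. Fcgbp, a large protein of the mucus gel, had 2064 reads in KIKO-2 and 30 in Treg-2, against 2, 0 and 1. Agr2, the disulfide isomerase that goblet cells need to make Muc2, had 91.1 CPM in KIKO-2 and 17.3 CPM in Treg-2, against 0.623 CPM in KIKO-3, 0.162 CPM in KIKO-1-and-4 and 0.370 CPM in Treg-3. The other goblet genes were the trefoil factor Tff3, the secreted protease Clca1, Spink4, the transcription factor Spdef, the resistin-like Retnlb and the lectin Reg4. They ran from 5.90 to 44.7 CPM in KIKO-2 and from 0.651 to 15.3 CPM in Treg-2, against at most 0.379 CPM elsewhere.

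Absorptive transcripts followed, with 8 of 10 above the other libraries. Their sum was 835 CPM in KIKO-2 and 166 CPM in Treg-2, against 5.51 CPM in KIKO-3, 2.98 CPM in KIKO-1-and-4 and 8.92 CPM in Treg-3. Pigr, the receptor that carries IgA through the epithelium, had 5288 reads in KIKO-2 and 391 in Treg-2, against 0 in KIKO-3, 1 in KIKO-1-and-4 and 1 in Treg-3. Lypd8, a surface protein that keeps flagellated bacteria from the mouse colon epithelium, had 2536 reads in KIKO-2 and 1154 in Treg-2, against 1, 0 and 0. Car1, a carbonic anhydrase of colonocytes, had 276 CPM in KIKO-2 and 43.0 CPM in Treg-2, against 3.42, 1.73 and 1.43 CPM in KIKO-3, KIKO-1-and-4 and Treg-3. Phgr1, a short protein of gut epithelium, and Guca2a, which encodes guanylin, had 1236 and 547 reads in KIKO-2 and 226 and 93 in Treg-2, and at most 4 in any other library. The channel and exchanger genes Slc26a3, Aqp8 and Cftr and the carbonic anhydrase Car4 had few reads. The chloride exchanger Slc26a3 had 100 reads in KIKO-2 and 3 in Treg-2, against 5, 2 and 14, so Treg-2 did not stand above Treg-3. Car4 had 23 and 3 reads in KIKO-2 and Treg-2, and the water channel Aqp8 had 19 and 0, against 3 reads in KIKO-3 for Aqp8 and none in any of the other libraries for either gene. The chloride channel Cftr had 98 reads in KIKO-2 and 12 in Treg-2, against 10, 2 and 1.

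Stem cell transcripts as a sum did not separate the libraries, and Lgr5 alone of the 4 was higher in both KIKO-2 and Treg-2 than elsewhere. Lgr5, the R-spondin receptor that marks crypt base stem cells, had 21 reads in KIKO-2 and 22 in Treg-2, against 16 in KIKO-3, 2 in KIKO-1-and-4 and 10 in Treg-3. Between KIKO-2 and KIKO-3 its ratio was 1.42 (0.704 to 2.90). Ascl2, a stem cell transcription factor, had 49 reads in KIKO-2 and none in Treg-2, against 6, 3 and 6. Olfm4, a stem cell marker of the small intestine, had 2 reads in Treg-2 and none elsewhere. Axin2, a Wnt feedback inhibitor that is not restricted to epithelium, had 7.53 CPM in KIKO-2 and 8.30 CPM in Treg-2, against 12.3 CPM in KIKO-3, 13.2 CPM in KIKO-1-and-4 and 9.52 CPM in Treg-3. It held most of the stem reads in every library. The stem genes made up 0.419% of the epithelial reads in KIKO-2 and 1.75% in Treg-2, against 15.8% to 32.1% in the other 3 libraries.

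Enteroendocrine transcripts were at the detection limit in all 5 libraries. The granins Chga and Chgb had 3 and 2 reads in KIKO-2 and none in Treg-2, against 1 and 0 in KIKO-3, 5 and 1 in KIKO-1-and-4 and 5 and 2 in Treg-3. Pyy, the peptide hormone of colonic L cells, had no read in any library. The tuft cell kinase Dclk1 had 20 reads in KIKO-2 and 12 in Treg-2, against 13, 13 and 26, and the tuft cell channel Trpm5 had 8 and 1, against 1, 0 and 1. At this depth these genes did not distinguish KIKO-2 and Treg-2 from the other libraries. Of the 31 genes higher in both KIKO-2 and Treg-2 than elsewhere, 11 were shared, 10 goblet and 8 absorptive, with Lgr5 of the stem list and Trpm5 of the tuft list. All 22 that met the 4-fold rule were shared, goblet or absorptive.

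KIKO-2 and Treg-2 differed from each other in their mix of epithelial transcripts. The summed level was 4.73 times higher in KIKO-2 than in Treg-2 (4.63 to 4.83). By lineage the ratio was 8.52 for goblet genes (7.97 to 9.11), 5.03 for absorptive genes (4.84 to 5.23), 4.07 for shared genes (3.95 to 4.18) and 1.13 for stem genes (0.927 to 1.39). The stem ratio rested mostly on Axin2, which is not restricted to epithelium, with 157 reads in KIKO-2 and 153 in Treg-2. Ascl2 had 49 and 0 reads, and Lgr5 21 and 22. Goblet genes took 17.1% of the epithelial reads in KIKO-2 (exact Clopper-Pearson 95% interval 16.8% to 17.5%) and 9.52% in Treg-2 (8.95% to 10.1%). Absorptive genes took 32.1% in KIKO-2 and 30.2% in Treg-2. The libraries belong to different groups, and with 1 library of each kind the difference has no replicate check.

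Goblet genes did not share a single ratio. Fcgbp was 60.8 times higher in KIKO-2 than in Treg-2 (42.5 to 90.4), Zg16 36.6 times (25.0 to 55.8), Tff3 26.9 times (16.2 to 48.5) and Clca1 24.2 times (17.2 to 35.2). Retnlb, with 12 reads in Treg-2, was 11.71 times higher (6.52 to 23.15) and Muc2 10.98 times (8.69 to 14.1). Agr2 at 5.28, Spink4 at 4.21, Spdef at 4.18 and Reg4 at 2.85 (2.49 to 3.27) stood near the keratins and claudins, of which Krt8 had 4.95 and Cldn7 4.60. Reg4 marks deep crypt secretory cells in the mouse colon, and Zg16, Fcgbp and Clca1 are secreted into the mucus by goblet cells. Whether this bears on the ratios was not tested. Among absorptive genes Pigr had a ratio of 12.0 (10.8 to 13.3) and Lypd8 of 1.94 (1.81 to 2.09). Over the 31 genes with more than 3 reads in Treg-2 the median ratio was 4.60, and for 28 of them the interval lay above 1. High ratios were not confined to goblet genes. With 3 reads each in Treg-2, the shared gene Cdx2 had a ratio of 46.3 (15.5 to 226.8). The absorptive genes Slc26a3 and Car4, also with 3 reads, had 29.5 (9.80 to 145.3) and 6.78 (2.05 to 35.3).

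**Figure D3:**
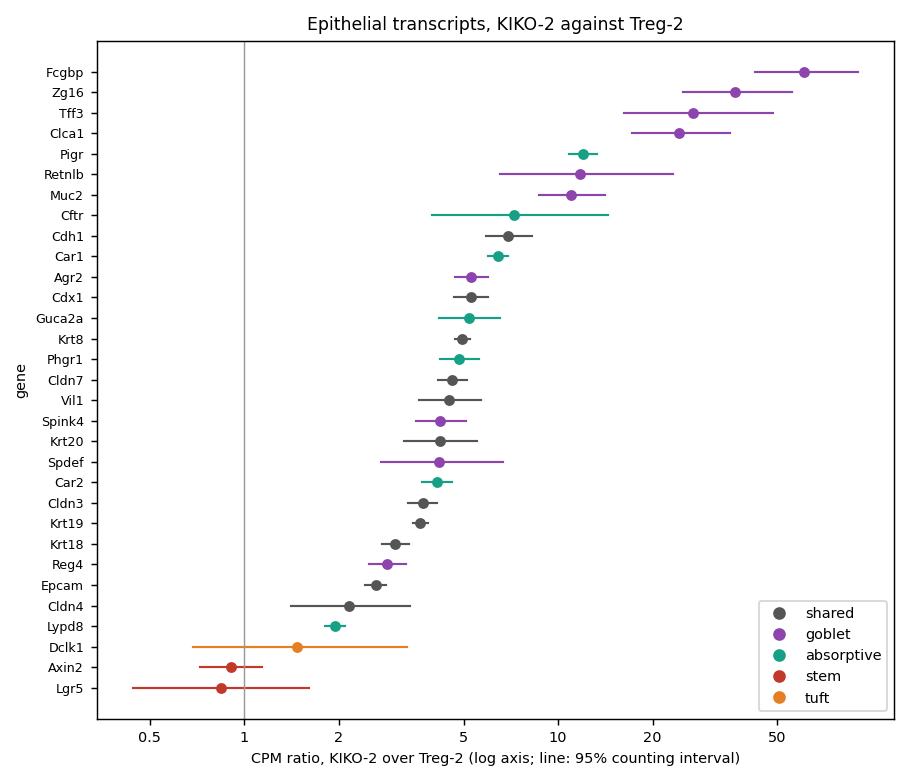
Ratio of CPM in KIKO-2 over Treg-2 (log axis) for the 31 genes with more than 3 reads in Treg-2, with 95% counting intervals as lines and lineage as colour. Ratios run from 0.844 for Lgr5 to 60.8 for Fcgbp, and 4 goblet genes lie at the top of those shown. Cdx2 and Slc26a3, with 3 reads each in Treg-2, are not shown.

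Epcam, Car2 and Cdh1 departed from the common split. Epcam, the adhesion molecule that most defines epithelial cells, had 118 CPM in KIKO-2, 0.889 CPM in KIKO-3 and 1.08 CPM in KIKO-1-and-4, and 45.0 CPM in Treg-2 and 34.3 CPM in Treg-3. Treg-3 thus held Epcam at nearly the level of Treg-2, a ratio of 1.31 for Treg-2 over Treg-3 (1.19 to 1.45), while Krt8 differed 60.04-fold between the same libraries. Car2, a carbonic anhydrase also found outside epithelium, had 86.5 CPM in KIKO-2, 0.978 CPM in KIKO-3 and 0.866 CPM in KIKO-1-and-4, and 21.1 CPM in Treg-2 and 6.75 CPM in Treg-3. Cdh1, which encodes E-cadherin, the ligand of the T cell integrin CD103, had 60.3 CPM in KIKO-2, 10.4 CPM in KIKO-3 and 5.79 CPM in KIKO-1-and-4, and 8.68 CPM in Treg-2 and 0.323 CPM in Treg-3. The Cdh1 levels of KIKO-3 and KIKO-1-and-4 lay on either side of that of Treg-2.

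**Figure D4:**
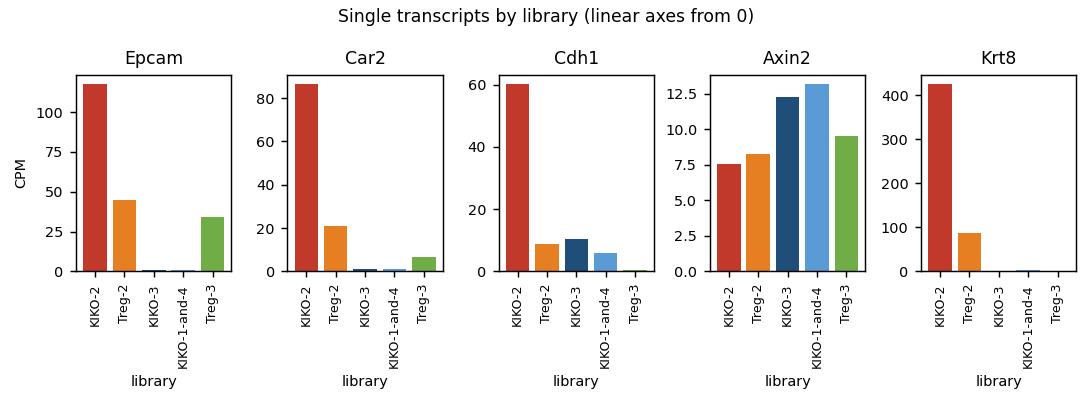
CPM of Epcam, Car2, Cdh1, Axin2 and Krt8 in each library (bars, linear axes from 0). Epcam is at 45.0 CPM in Treg-2 and 34.3 CPM in Treg-3, where Krt8 is at 86.0 CPM in Treg-2 and 1.43 CPM in Treg-3.

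The comparison of reporter-null with Treg cells called none of the epithelial genes with all 5 libraries and no replicate block in the fit. By edgeR's quasi-likelihood test with Benjamini-Hochberg adjustment over 14164 genes, 0 of the 32 tested members passed an adjusted p of 0.05, where 8.79% of all tested genes did (4.07% higher and 4.72% lower in reporter-null cells). At an unadjusted p under 0.05 there were also 0 members, against 3199 of the 14164 tested genes. With limma-voom 0 members and 8.57% of all tested genes were called. With DESeq2, which gave some members no adjusted p, 0 members and 16.4% of all tested genes were called. By edgeR the median log2 fold change of the members was 1.66 and that of all tested genes 0.018. Epcam averaged 39.9 ± 67.4 CPM in reporter-null cells and 39.6 ± 7.56 CPM in Treg cells (SD, n = 3 and 2), and the log2 fold change was 0.01, with an SE of 2.41 (adjusted p = 0.998, edgeR). Krt8 averaged 143 ± 244 CPM in reporter-null cells and 43.7 ± 59.8 CPM in Treg cells, and the log2 fold change was 1.72, with an SE of 3.31 (adjusted p = 0.833, edgeR). Among the tested members Fcgbp had the largest log2 fold change, 5.34, with an SE of 4.28 (adjusted p = 0.583, edgeR). The standard deviation exceeded the mean for Krt8, Muc2 and Fcgbp in both groups. With 1 library of each group far above the rest, the test could hardly call such genes. The 0 calls therefore do not show equal levels in the groups.

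Without KIKO-2 and Treg-2, 3 members were called. That fit leaves 2 reporter-null libraries and 1 Treg library, and assumes that the lone Treg library varies like the others. Of the 15 members then tested, 1 was higher and 2 were lower in reporter-null cells, where 6.67% of all tested genes were higher and 8.52% lower. In log2 terms Epcam fell by 5.12, with an SE of 0.319 (adjusted p = 1.19e-54, edgeR), and Car2 fell by 2.85, with an SE of 0.495 (adjusted p = 2.1e-07, edgeR). Cdh1 rose by 4.63, with an SE of 0.566 (adjusted p = 1.79e-14, edgeR). Krt8 differed by 0.49, with an SE of 0.632 (adjusted p = 0.73, edgeR), and was not called. Without KIKO-2 alone, which keeps both Treg libraries, 2 of 14 tested members were lower, where 8.16% of all tested genes were. These were again Epcam (-5.34, adjusted p = 5.15e-07, edgeR) and Car2 (-3.91, adjusted p = 0.00312, edgeR), while Cdh1 differed by 0.84 (adjusted p = 0.842, edgeR). Over the alternatives, leaving aside DESeq2 for Epcam and Car2, where it gave none, the adjusted p ran from 1.19e-54 to 0.999 for Epcam, from 2.1e-07 to 0.996 for Car2 and from 1.79e-14 to 0.842 for Cdh1.

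Between libraries whose names share a number the direction differed for Epcam and Car2. Epcam was 2.62 times as high in KIKO-2 as in Treg-2 and 0.0259 times as high in KIKO-3 as in Treg-3. For Car2 the ratios were 4.11 and 0.145. For Cdh1 they were 6.95 and 32.0, higher in the reporter-null library both times. Each is a ratio of 1 library to 1 library, with no replicate check.

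Further epithelial genes, 141 that are not members, were listed to see how far the split reached. Of the 136 with a read, 77 were higher in both KIKO-2 and Treg-2 than elsewhere, where 11.6% of all genes with a read were. The 4-fold rule was met by 48, and by 1.61% of all genes with a read. By lineage 32 of 39 shared, 14 of 20 goblet, 22 of 32 absorptive and 8 of 14 stem genes were higher in both, against 1 of 21 enteroendocrine and 0 of 10 tuft genes. The factor Elf3 of the shared list had 2463 reads in KIKO-2 and 499 in Treg-2, against 2 in KIKO-3, 2 in KIKO-1-and-4 and 17 in Treg-3. Among absorptive genes Ceacam1 had 3742 and 701 reads in KIKO-2 and Treg-2, against 1, 5 and 1, and the antibacterial lectin Reg3b had 1886 and 307, against 0, 0 and 1. Among stem genes 3 met the 4-fold rule, such as Prom1, with 532 and 31 reads in KIKO-2 and Treg-2, against 7, 0 and 3, and Sox9, with 471 and 72, against 8, 6 and 10. The membrane mucin Muc13 had 2010 and 489, against 14, 17 and 20. Atoh1, the factor that commits cells to secretory fates, had 254 reads in KIKO-2 and none in Treg-2, against 0, 2 and 0. Sct, the enteroendocrine hormone secretin, had 67 reads in KIKO-2 and none in Treg-2, against 0, 0 and 1. Not all listed genes were specific here. Pkp3, a plakophilin of desmosomes, had 380 CPM in KIKO-2 and 353 CPM in Treg-2, against 336 to 468 CPM elsewhere.

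Of the 99 further genes tested between groups, 6 were higher and 2 lower in reporter-null cells, where 4.07% of all tested genes were higher and 4.72% lower, and none of these 8 was higher in both KIKO-2 and Treg-2 than elsewhere. Cpe, a carboxypeptidase that matures peptide hormones, averaged 315 ± 25.1 CPM in reporter-null cells and 27.9 ± 7.78 CPM in Treg cells (log2 fold change 3.50, SE 0.211, adjusted p = 0.000485, edgeR). Emp1 rose by 1.70 (adjusted p = 0.00146, edgeR), and the glucagon gene Gcg (2.26, adjusted p = 0.0307), the synaptic vesicle gene Syp (0.9995, adjusted p = 0.0166), Tmigd1 (1.63, adjusted p = 0.0376) and the phosphate carrier Slc20a1 (0.66, adjusted p = 0.0229) were also higher. Lrig1, a receptor regulator of stem cells, fell by 1.34 (adjusted p = 0.00407, edgeR), and the prostaglandin D synthase gene Hpgds fell by 1.61 (adjusted p = 0.0197, edgeR). The calls of Gcg, Syp, Slc20a1, Tmigd1 and Hpgds were lost without either Treg library or without KIKO-1-and-4, with adjusted p up to 0.145, 0.143, 0.166, 0.179 and 0.165, and those of Gcg and Tmigd1 also without KIKO-3 (0.0764 and 0.0952). That of Lrig1 was lost without Treg-3 (0.051), and that of Slc20a1 without both KIKO-2 and Treg-2 (0.0766).

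Markers of other cell types moved with the epithelial genes in part. Over all genes with a read, 11.6% were above the other 3 libraries in both KIKO-2 and Treg-2. B and plasma cell markers, of which 9 had a row, summed to 1270 CPM in KIKO-2 and 1819 CPM in Treg-2, against 649 to 736 CPM, and 7 of the 9 were above the other 3 libraries. Jchain, the joining chain of IgA and IgM, had 806 and 1332 CPM in KIKO-2 and Treg-2, against 362 to 415 CPM. Stromal markers summed to 132 CPM in KIKO-2 and 53.5 CPM in Treg-2, against 14.0 to 23.3 CPM, with 10 of 12 above. Macrophage and dendritic cell markers summed to 113 and 56.3 CPM in KIKO-2 and Treg-2, against 19.4 to 31.3 CPM, with 6 of 12 above. The sums of endothelial markers (88.7 to 119 CPM) and enteric glia and neuron markers (2.45 to 5.05 CPM) did not rank KIKO-2 and Treg-2 above the rest. Pecam1 held most of the endothelial sum, with 81.4 to 101 CPM over the libraries, and 3 of the 12 endothelial markers were above. Granulocyte and mast cell markers were 39.4 CPM in KIKO-2 and 8.46 CPM in Treg-2, against 8.96 to 27.5 CPM, and erythroid markers 32.1 and 6.08 CPM, against 1.73 to 4.53 CPM. Kit held most of the granulocyte and mast cell sum, with 37.2 CPM in KIKO-2 and 6.51 CPM in Treg-2. Among the stromal and B cell markers Pdgfra and Des were at 0 reads in Treg-3, Ms4a1 in KIKO-1-and-4 and Lum in KIKO-3, KIKO-1-and-4 and Treg-3, and no macrophage or dendritic cell marker was at 0 in any library. The part of these cells in the epithelial values was not tested.

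**Figure D5:**
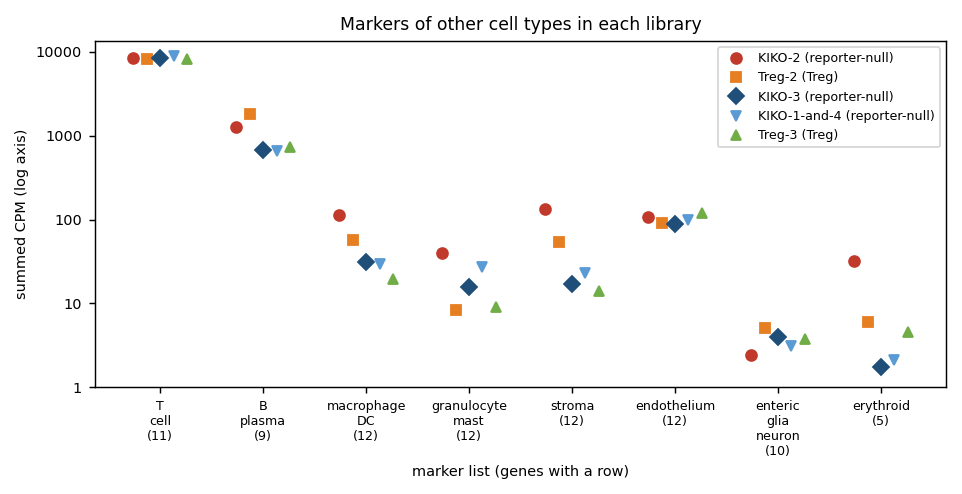
Summed CPM (log axis) of marker lists of other cell types in each library, with the number of genes that had a row in brackets. T cell markers lie between 8188 and 8860 CPM in every library, while B and plasma cell and stromal sums are highest in KIKO-2 and Treg-2.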

How the data were processed

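Per the labels' protocols, RNA from cells lysed in TRIzol was amplified with a SMART-Seq kit and sequenced in paired ends on an Illumina HiSeq. The authors deposited 1 table of whole read counts by gene symbol, which its values show to be unnormalised. The submitters' processing notes list DESeq without its role. No aligner, build, annotation or strand setting is given in the sources used, and genes that overlap or have near-identical copies may share reads. In GENCODE M21, 8 of the 41 members share exon bases with another gene, among them Krt8, Cldn3, Vil1, Axin2 and Cftr.

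The 4 rows named NA, 0.0034% to 0.00492% of a library, were left out, and no column was left unused. Counts were analysed with edgeR 4.0.16 in R 4.3.3. filterByExpr (minimum count 10, minimum total 15) kept 14164 genes, TMM factors ran from 0.972 to 1.04, and groups were compared by the robust quasi-likelihood F test with no covariate, at an adjusted p of 0.05. The standard error was the log2 fold change divided by the square root of F. Replicates of a group did not agree within sampling noise (chi-square of 21.3 to 91.2 per degree of freedom). On simulated counts for this comparison with 14164 genes, edgeR recovered 44% of the 50 genes shifted by 1 on the log2 scale, 68% of those shifted by 2, 68% by 3 and 88% by 4, with 8 false calls. The shifted genes were drawn at random and the simulation held no split by library, so these rates need not hold for the members. As alternatives the fit was repeated with DESeq2 1.42.0, with limma-voom (limma 3.58.1), with RLE or upper quartile factors, unfiltered, with at least 1 CPM required in 2 libraries, with libraries left out and with replicate blocks.

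The members, lists and the split by library were chosen with earlier results of these data known. Named in full were Epcam, Cdh1, Krt8, Vil1, Cdx2, Lgr5, Muc2, Chga and Dclk1, the 4 members of each lineage with the most reads in any library, and up to 3 further genes a list. Others are named to complete a count, and Atoh1, Sct, Prom1, Sox9 and the genes of the closing observations were chosen after their values were seen. A library at 0 reads was given a limit of 3 reads. Some genes are not reported here.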

Additional observations from a re-analysis of the deposited data

How the results depend on the processing

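The number of genes called between reporter-null and Treg cells, 1245, was 2323 with DESeq2, 2153 without both KIKO-2 and Treg-2 and 24 with a replicate block by the numbers in the titles. It ran from 341 to 2035 when 1 library was left out, with 341 without Treg-2, 405 without Treg-3, 467 without KIKO-1-and-4 and 2035 without KIKO-2. The number of members called, 0, was 3 without both KIKO-2 and Treg-2 and ran from 0 to 2 with 1 library left out, with 2 without KIKO-2. It stayed at 0 with RLE or upper quartile factors, DESeq2, limma-voom, no filter, a CPM filter and the block by title numbers. Fits that leave out Treg-2 or Treg-3 hold 1 Treg library, so their counts do not reflect any spread among Treg libraries. A replicate block by the numbers in the library names gave 1399 calls in all, 9.88% of tested genes over both directions. In that fit 18 members were called, all higher, Cdh1 among them (adjusted p = 0.00375, edgeR). KIKO-1-and-4 has no number and stood alone in its block, so these calls rest on 2 pairs of libraries. Zg16 had 0 reads in KIKO-3 and 0 in Treg-3, and Lypd8 had 1 and 0. For such genes the call rests on KIKO-2 against Treg-2, with no replicate check. With the title blocks Cpe stayed called (adjusted p = 0.0497, edgeR) and the other 7 further epithelial genes were not, among them Emp1 (0.0636) and Lrig1 (0.0667). The labels do not say that a number marks a shared animal or day. Deviations from the group means correlated at 0.602 and 0.481 for the pairs by library name and at -0.511 and -0.602 for those by title. With only 2 Treg libraries their deviations are equal and opposite, so 0.602 and -0.602 for KIKO-2 are 1 value with the sign changed. The values are not independent, and which number pairs libraries was not tested.

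The summed ratio of Treg-2 over Treg-3, 8.49, was 9.1 on raw totals, 7.33 without Krt8 and 39.9 as a median of single ratios. That of KIKO-2 over KIKO-3, 56.9, was 49.0 without Krt8 and 139 as a median, and that of KIKO-2 over KIKO-1-and-4, 62.0, was 55.5 and 144.

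Uncalled log2 fold changes of members changed sign. With limma-voom they were -0.35 for Pigr, -0.49 for Lypd8, -0.9997 for Muc2, -1.41 for Car2 and -2.97 for Epcam. With title blocks they were -0.22 for Car2 and -1.42 for Epcam, and with library name blocks -1.35 for Epcam and 0.17 for Lgr5. Epcam, at 0.01, was -0.0048 with no filter and -0.0094 with upper quartile factors. Without both KIKO-2 and Treg-2, Epcam was -5.12 and Car2 -2.85. With 1 library left out the ranges were -5.34 to 0.59 for Epcam, -3.91 to 2.12 for Car2, -4.47 to 6.63 for Krt8, -3.69 to 5.75 for Krt19, -4.78 to 6.93 for Cldn7, -2.40 to 6.36 for Vil1, -4.44 to 6.35 for Agr2, -3.11 to 6.03 for Car1, -0.62 to 12.7 for Lypd8, -0.97 to 0.40 for Lgr5 and -0.68 to 0.20 for Dclk1. The cause was not tested. Depth limits Chga, Chgb, Pyy, Olfm4 and Trpm5, with at most 8 reads in any library, and Cdx2, Car4 and Slc26a3 in Treg-2, with 3 reads each.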

Other observations

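Among all genes with a read, 320 met the rule of at least 4-fold higher levels in both KIKO-2 and Treg-2 than in every other library, with at least 10 reads in both. They included 22 of the members, 48 further epithelial genes and 4 markers of other cell types, and 246 were on none of the lists. By total reads the leading gene outside the lists was Dmbt1, a secreted scavenger protein of mucosal surfaces, with 10724 reads in KIKO-2 and 310 in Treg-2, against 5 in KIKO-3, 3 in KIKO-1-and-4 and 2 in Treg-3. Mptx1, a pentraxin of the mouse gut, had 2631 and 1269 reads in KIKO-2 and Treg-2, against 2, 2 and 19. The alcohol dehydrogenase Adh1 had 1591 and 959, against 17, 30 and 71. H2-Aa, an MHC class II chain, had 1134 and 583, against 142, 99 and 64.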
